A study of Mus musculus with 107 samples.

Results

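Integrins are receptors that hold cells to the matrix around them and to each other, and laminins are the trimeric glycoproteins on which basement membranes are built. The genes taken were all those measured by a probe whose single gene symbol begins with Itga, Itgb, Lama, Lamb or Lamc followed by a letter or a number. The array carried 38 such probes for 34 genes, and 35 probes for 31 genes had a value inside the limits of the scale on at least 90% of 104 arrays, out of 12315 genes kept in all. These 31 were 21 genes with an integrin symbol and 10 laminin chains. Itgb3bp, with 95 of 104 values, was the gene kept with the fewest values, while Itga8 (92), Itgae (88) and Itgb1bp2 (82) lay outside and were left out. Itgb3bp encodes a nuclear protein that binds an integrin tail, and is no integrin.

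The samples were livers of female F2 mice bred from C57BL/6J and DBA/2J parents, each mouse carrying its own mixture of the 2 parental genomes, and all eating an atherogenic diet. Each mouse's liver RNA shared a 2-colour array with a pool that held the same amount of RNA from every mouse. Of the 107 arrays analysed here those of mice 24, 55 and 91 held only 0 or missing values, which left 104 mice of 1 group. There was no control group, so the question was how far these genes differed from mouse to mouse and with which other genes they varied. Values are log2 ratios of mouse to pool. They show differences between mice, not levels between genes, so the liver label was not checked against marker levels.

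A few facts bear on every value. The deposited values are read as log10 ratios of mouse over pool, which the labels do not state. Were they natural logarithms, folds would shrink and r, rho and adjusted p would not move. Their direction is also uncertain, since the labels name no dye and 7 of 5356 pairs of arrays correlated below -0.3. If all signs were turned, high and low mice would change places and correlations would stay, but if single arrays were turned the correlations would change. Without the 10 arrays in those pairs r was 0.888 for Lama2 with the stellate score used below, against 0.901 on all arrays, and 0.908 for Itgb4 with the cholangiocyte score, against 0.930. Whether any single array is turned was not tested. A technical class of 18 arrays had 946 to 1828 values on the end stops of the scale. On the other 86 arrays the number was at most 496. Correlations within each class are given beside many of the pooled ones, but not beside all. The limit-rich arrays all lay among mice 59 to 107. Scores also shifted with mouse number. The endothelial score used below was mostly negative up to mouse 54 and mostly positive from mouse 56 on, and the stellate score shifted the same way, less strongly. The labels do not say what the numbers stand for, so an order or batch shift cannot be told apart from differences between mice. No RNA was measured on a second array, so differences between mice cannot be separated from noise between arrays, and precision depends on how many arrays there are.

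An integrin is a pair of 1 alpha and 1 beta chain, and a laminin joins 1 alpha, 1 beta and 1 gamma chain. Beta 2 integrins and their partners are made by leukocytes. The pair of alpha 6 and beta 4 binds laminin beneath epithelia such as that of bile ducts, and alpha V integrins bind fibronectin and vitronectin and can release active TGF-beta. A healthy liver sinusoid lacks a continuous basement membrane, and laminins are deposited around bile ducts and vessels and, in scarring, along sinusoids, where stellate cells are a main source of matrix.

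Lama5, Itgb2 and Lama2 differed most from mouse to mouse, and Itga5 and Itgb3 least. Over all 31 genes the median range between the 5th and 95th percentile of mice was 2.20-fold, beside 1.94-fold for all 12315 genes. A range above 2-fold was found for 16 of 31 genes (51.6%), beside 46.9% of all genes. Without the 18 limit-rich arrays the medians were 1.79-fold for these genes and 1.81-fold for all genes. The wider median of the 31 genes was thus not seen on the 86 arrays.

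Lama5, the alpha chain of the most widespread adult laminin, had the widest range, 7.74-fold. Its lowest value was -1.39 log2 in mouse 155, its median -0.32 and its highest 3.18 in mouse 71, followed by 2.95 in mouse 15, so that a few mice stood far above the rest. Itgb2, the beta chain of leukocyte integrins, ranged over 5.98-fold, from -1.81 in mouse 76 through a median of -0.12 to 1.76 in mouse 120. Of all mice, 19 lay more than 2-fold below the pool and 7 more than 2-fold above it. Lama2, an alpha chain of mesenchymal basement membranes, ranged over 5.84-fold (lowest -3.20 in mouse 62, median -0.25, highest 2.33 in mouse 71). Itgb3bp ranged over 4.17-fold, and over 2.21-fold without the limit-rich arrays, with a lowest value of -6.35 in mouse 106. Lamb1, the common beta chain, ranged over 3.67-fold (-1.59 in mouse 36, median -0.12, 1.57 in mouse 71). Itgax, the alpha chain CD11c of dendritic cells and macrophages, ranged over 3.34-fold (-0.97 in mouse 20, median -0.18, 1.5 in mouse 120). Mouse 71, on a limit-rich array, was the highest mouse for Lama5, Lama2, Lamb1, Lamc1, Itga6 and Itgb2l, and also had the highest stellate cell score of all mice, 2.22. Its array had the widest spread over all kept probes (SD 1.31 log2, the next being 0.89 in mouse 106). It was also among the 10 arrays in negative pairs.

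At the other end, Itga5, the alpha chain of the main fibronectin receptor, ranged over only 1.32-fold, Itgb3, the beta chain of the vitronectin receptor and of the platelet fibrinogen receptor, over 1.33-fold and Itga3, a laminin receptor chain, over 1.37-fold. Both Itga5 (0.80 log2) and Itgb3 (0.85) were highest in mouse 144. For Lamc1, the gamma chain shared by most laminins, the range was 1.58-fold, narrower than those of its partners Lama5, Lama2 and Lamb1. All other genes lay between 1.37-fold for Lamc3 and 2.98-fold for Itga6. Lama3, an epithelial alpha chain, ranged over 2.91-fold but reached 4.68 log2 in mouse 68 and 4.44 in mouse 71, above a median of 0.09. Some genes differed with the array class: the median was 0.38 log2 on the 18 limit-rich arrays and -0.16 on the 86 for Itga9, -0.66 and -0.27 for Itga6, and -1.28 and 0.10 for Itgb3bp.

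**Figure D1:**
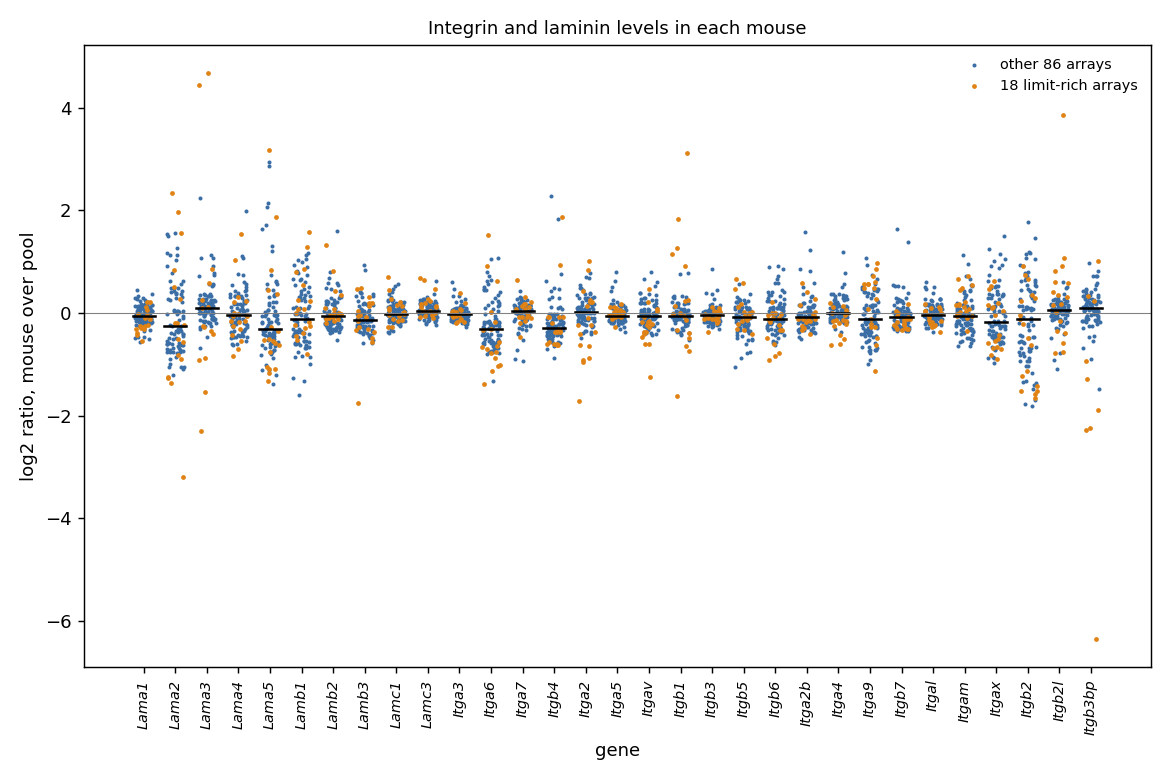
Log2 ratio of mouse over pool for each of the 31 genes (vertical axis), 1 point per mouse, with the 18 limit-rich arrays in orange, the other 86 in blue and the median as a black bar. Lama5, Lama2 and Itgb2 spread most, Itga5 and Itgb3 least, and several far points of Lama3, Itgb1, Itgb2l and Itgb3bp lie on limit-rich arrays.

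Promoter windows, of 250 bases before to 50 after the start site in RefSeq on GRCm38.p6, were found for 20 of the 31 genes. They are shown for 5 genes that the results turn on: Itgam and Itgax, partners of Itgb2, and Lama2, Lamb1 and Lama5, among the genes tied most closely to stellate or bile duct genes below. The windows lie at chr7:128062390-128062689 (+ strand), chr7:128129300-128129599 (+ strand), chr10:27616893-27617192 (- strand), chr12:31265043-31265342 (+ strand) and chr2:180225810-180226109 (- strand). Capitals mark GAGGAA, the core bound by PU.1 and related ETS factors of leukocytes, and GGGCGG, the GC box, each on either strand, and no matches overlap.
Itgam: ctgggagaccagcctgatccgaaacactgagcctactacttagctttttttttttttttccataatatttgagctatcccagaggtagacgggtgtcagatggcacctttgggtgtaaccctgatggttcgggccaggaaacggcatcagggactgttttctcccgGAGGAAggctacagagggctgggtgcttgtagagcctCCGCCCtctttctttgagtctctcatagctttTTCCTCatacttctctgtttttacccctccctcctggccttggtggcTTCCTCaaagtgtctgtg
Itgax: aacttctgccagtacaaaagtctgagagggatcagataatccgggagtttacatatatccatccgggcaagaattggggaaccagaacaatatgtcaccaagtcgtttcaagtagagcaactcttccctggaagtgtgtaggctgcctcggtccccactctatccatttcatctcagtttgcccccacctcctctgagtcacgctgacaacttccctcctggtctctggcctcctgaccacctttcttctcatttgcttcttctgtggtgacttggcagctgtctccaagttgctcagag
Lama2: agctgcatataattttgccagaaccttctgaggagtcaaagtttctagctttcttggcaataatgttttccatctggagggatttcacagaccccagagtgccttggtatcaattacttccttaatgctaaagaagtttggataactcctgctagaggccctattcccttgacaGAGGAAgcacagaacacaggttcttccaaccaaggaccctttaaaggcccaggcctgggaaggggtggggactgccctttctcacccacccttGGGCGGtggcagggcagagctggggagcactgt
Lamb1: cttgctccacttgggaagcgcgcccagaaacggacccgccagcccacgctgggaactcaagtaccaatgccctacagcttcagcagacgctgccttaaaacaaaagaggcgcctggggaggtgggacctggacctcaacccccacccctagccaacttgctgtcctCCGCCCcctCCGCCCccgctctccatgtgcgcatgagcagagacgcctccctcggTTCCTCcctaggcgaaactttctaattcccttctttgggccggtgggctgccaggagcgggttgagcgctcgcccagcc
Lama5: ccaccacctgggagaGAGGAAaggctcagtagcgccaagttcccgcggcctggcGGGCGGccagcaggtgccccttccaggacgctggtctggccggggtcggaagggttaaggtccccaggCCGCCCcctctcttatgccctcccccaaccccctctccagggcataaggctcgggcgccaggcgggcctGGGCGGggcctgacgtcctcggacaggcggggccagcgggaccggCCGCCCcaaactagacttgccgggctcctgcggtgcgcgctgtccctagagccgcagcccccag
The Itgam window held GAGGAA 3 times, beginning at -84, -15 and 33 from the start site, and the GC box once. The Itgax window held neither, which says only that these letters are not in it. Lama2 and Lamb1 held GAGGAA once each, with 1 GC box in Lama2 and 2 in Lamb1, and Lama5 held 4 GC boxes and 1 GAGGAA. Among all 32851 windows of this length 28.3% held GAGGAA and 35.7% the GC box, and among the 23 windows of the 20 genes 14 held GAGGAA and 12 the GC box. The matches are descriptions of sequence, and factor binding was not measured.

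Where a gene had several probes, these did not always tell the same story. The less variable Itgb1 probe (SD 0.24 log2 over mice) and the more variable one (SD 0.97) correlated at r = 0.0274 (rho = 0.0116, 98 mice). The more variable probe reached 6.31 log2 in mouse 106 and dominated the gene's mean, so some Itgb1 results are also given by probe below. Of 3 Itgav probes, the first and the second correlated at r = 0.502 with each other, and at r = 0.0192 and -0.0807 with the third. The 2 probes of Itgb2l, a gene expressed in granulocytes, gave r = 0.303 but rho = 0.0358.

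Many of the genes varied together. Of 465 pairs, 69 (14.8%) had r above 0.5 and 1 had r below -0.5, while among all pairs of 10151 genes with complete values 3.52% lay above 0.5 and 2.59% below -0.5. All points share the pool and an array each, so these are descriptions. The closest pairs were Lama2 with Lamb1 (r = 0.851), Itgb4 with Lama5 (0.846), Lama4 with Lamb2 (0.841), Itgb4 with Lamb2 (0.829) and Lama5 with Lamb2 (0.829). The 1 strongly negative pair, Itgb1 with Itgb3bp (r = -0.600), rested on mouse 106 and 1 other mouse and was 0.00775 without the 2 mice farthest from the median of Itgb1. Itga7, a laminin receptor chain of muscle, had r = -0.475 with Itgam and -0.452 with Lama2.

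**Figure D2:**
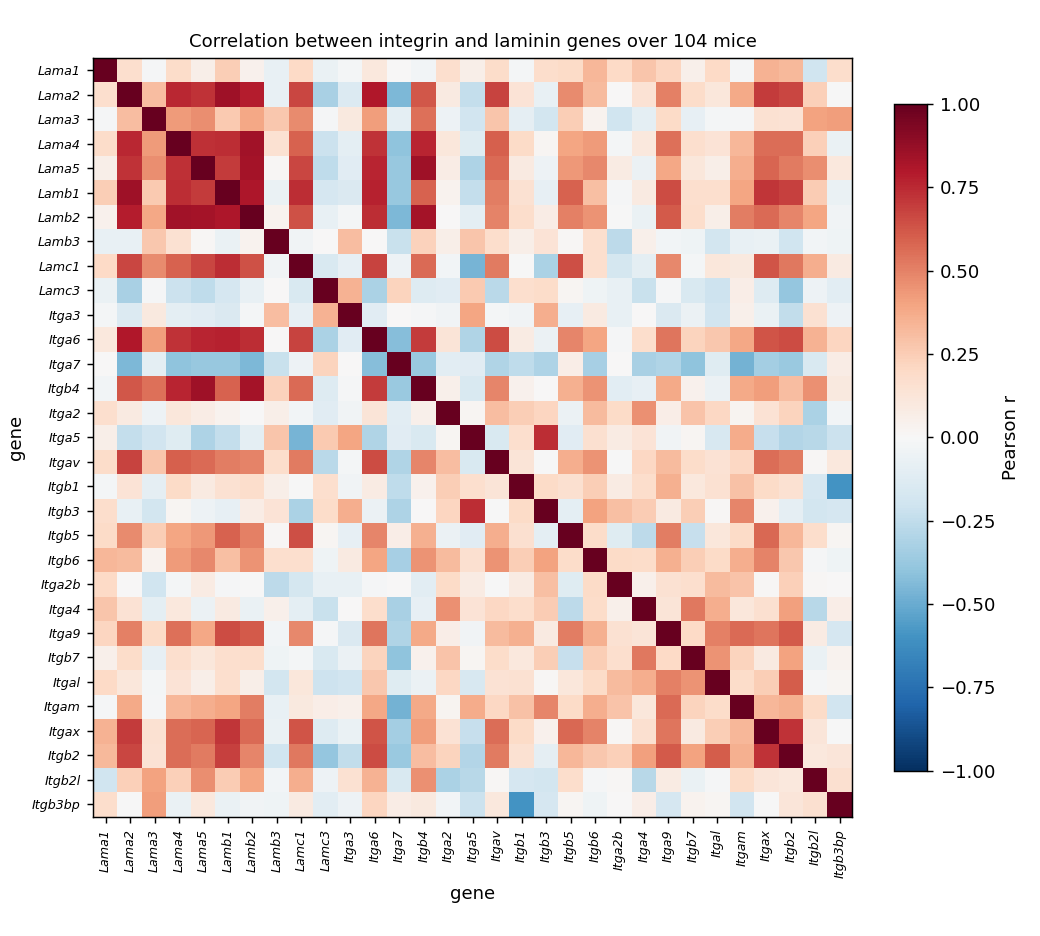
Pearson r over 104 mice between each pair of the 31 genes, red for positive and blue for negative. Lama2, Lama4, Lama5, Lamb1, Lamb2, Itga6 and Itgb4 form a red block, Itgb2, Itgax and Itga9 join it more weakly, and the row of Itga7 is mostly blue.

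To see which genes of other cell types each one followed, every kept gene outside a score's own list was regressed with limma on each of 9 scores, a score being the mean of the scaled marker genes of a cell type. Adjusted p-values are by Benjamini and Hochberg over all genes, at a threshold of 0.05, and slopes are log2 units per SD of the score. In whole liver, more cells of a type and more RNA per cell cannot be told apart. The scores were not independent: macrophage and stellate scores correlated at r = 0.728, macrophage and platelet scores at 0.773, and stellate and cholangiocyte scores at 0.587. A large share of all genes passed with most scores, and the counts below are to be read against it.

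**Figure D3:**
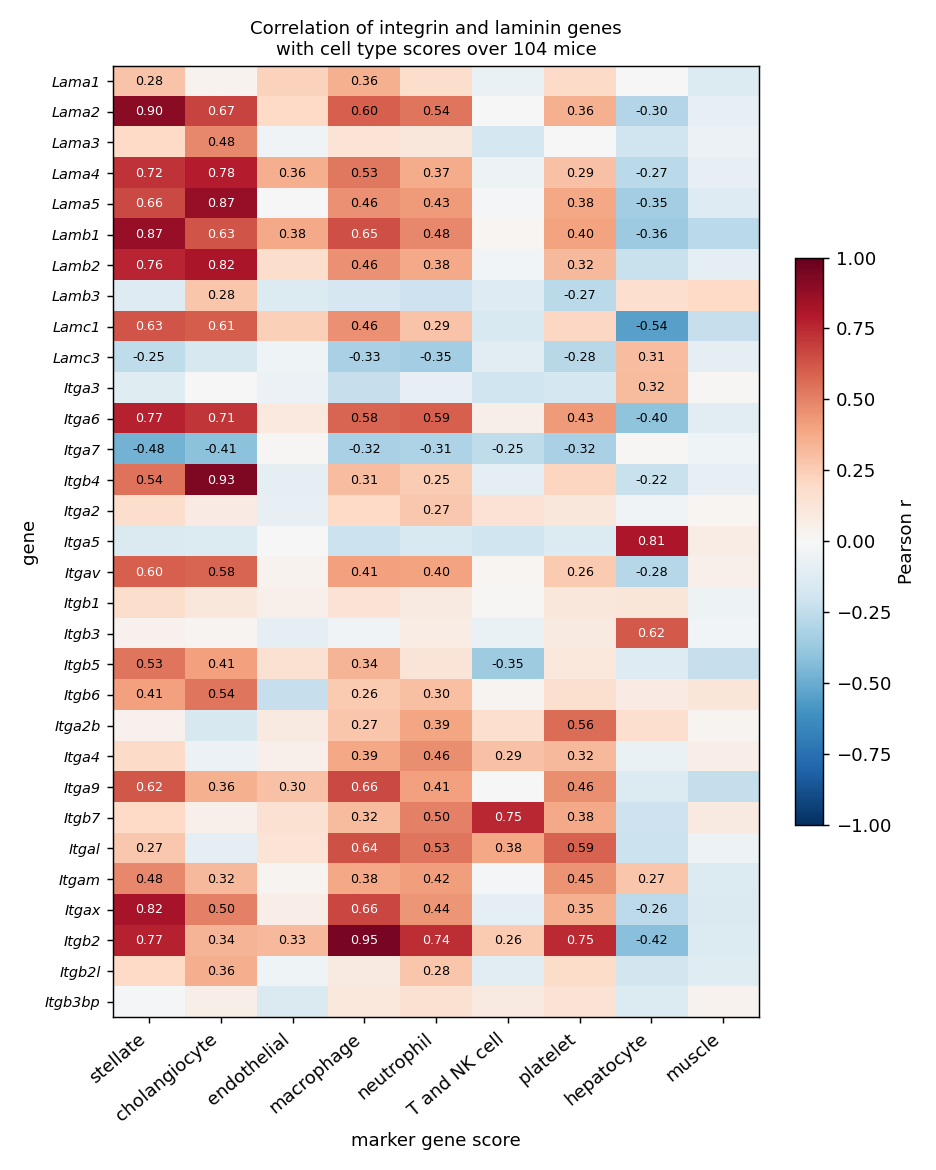
Pearson r of each of the 31 genes (rows, laminins at the top, leukocyte integrins toward the bottom) with 9 marker gene scores (columns) over 104 mice; a printed value passed limma at an adjusted p under 0.05. Lama2 (0.90) stands out in the stellate column, Itgb4 (0.93) in the cholangiocyte column, Itgb2 (0.95) in the macrophage column and Itga5 (0.81) in the hepatocyte column.

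Lama2 and Lamb1 had the highest correlations with stellate cell and fibroblast genes, followed by the leukocyte genes Itgax and Itgb2. The stellate score used 10 of 12 listed genes, among them Col1a1, Col1a2, Col3a1 and Pdgfrb. Of 31 genes, 17 passed as positive and 2 as negative, while 53.9% of all genes passed in either direction, 22.2% as positive and 31.7% as negative. The median r was 0.283 for the 31 genes and -0.0711 for all genes. Lama2 had r = 0.901 (rho = 0.902, permutation p = 1e-05 for both, the smallest that 100000 permutations can give), 0.918 on the 86 arrays and 0.911 on the 18, with a slope of 0.73 ± 0.03 (SE), or 1.66-fold per SD of the score (adjusted p = 1.28e-36). Lamb1 followed with r = 0.874 (rho = 0.865, 1.44-fold per SD, adjusted p = 1.16e-31). Itgax had r = 0.821 (rho = 0.806, adjusted p = 7.03e-25) and Itgb2 r = 0.772 (rho = 0.781, adjusted p = 1.81e-20), each again with permutation p = 1e-05. Lamb2 (r = 0.760), Lama4 (0.722) and Lamc1 (0.628) also passed, as did Lama5 (0.661) and, less tightly, Lama1 (0.283, adjusted p = 0.00901), while Lama3 (0.198, adjusted p = 0.0773) and Lamb3 (-0.128, adjusted p = 0.270) did not. Without the 2 mice farthest from the median score r was 0.888 for Lama2, 0.860 for Lamb1, 0.818 for Itgax and 0.770 for Itgb2. On the 86 and the 18 arrays r was 0.892 and 0.902 for Lamb1, 0.825 and 0.862 for Itgax, and 0.751 and 0.866 for Itgb2. Itga7 (r = -0.475, adjusted p = 2.05e-06) and Lamc3 (r = -0.252, adjusted p = 0.0234) were lower in mice with a high score. For Lamc3 r was -0.141 on the 86 arrays and -0.493 on the 18.

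Other parts of the matrix and of the adhesion machinery held genes that passed in either direction with the stellate score. The counts stand beside 22.2% of all genes as positive and 31.7% as negative. Of 11 measured genes of basement membranes and their receptors, 7 passed as positive with the stellate score and 3 as negative. Col4a1 (r = 0.910), Col4a2 (0.880), Nid1 (0.794) and Nid2 (0.687), the type IV collagens and the nidogens that link them to laminin, led these, and the syndecans Sdc1 (-0.480) and Sdc4 with Col18a1 were negative. Of 11 integrin ligands, 6 passed as positive and 2 as negative. Tnc, tenascin C, reached r = 0.890, Postn, periostin, 0.733, Vcam1, the ligand of alpha 4 integrins, 0.725 and Cdh1, a ligand of alpha E integrin, 0.578. Of 17 adaptors and membrane partners, 8 passed as positive and 4 as negative, led by the tetraspanins Cd9 (r = 0.836) and Cd151 (0.496), with Actn4 (0.487) and Zyx (0.435). Ilk, the integrin-linked kinase (r = 0.0642), and its partner Parva (-0.00289) did not pass.

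Itgb4 and Lama5 had the highest correlations with bile duct genes, followed by Lamb2 and Lama4. The cholangiocyte score used 8 of 10 genes, among them Krt7, Krt19, Epcam and Cldn7. Of the 31 genes 18 passed as positive and 1, Itga7, as negative, beside 44.4% of all genes in either direction, 20.1% as positive and 24.2% as negative. Without the 10 arrays in negative pairs 14 genes passed, beside 22.3% of all genes. Itgb4 had r = 0.930 (rho = 0.763, 0.928 on the 86 arrays and 0.956 on the 18, 1.37-fold per SD, adjusted p = 1.30e-42). Its lowest value was -0.87 log2 in mouse 122, its median -0.29 and its highest 2.28 in mouse 130, the mouse that also led the score, and 3 mice lay more than 2-fold above the pool. Lama5 had r = 0.868 (rho = 0.637, 1.70-fold per SD, adjusted p = 1.50e-30), Lamb2 r = 0.815 (rho = 0.521, adjusted p = 2.95e-23) and Lama4 r = 0.783 (rho = 0.520, adjusted p = 1.65e-20). Rank correlations were lower than r for all 4, and permutation p was 1e-05 for each r and rho. Without the 2 mice farthest from the median score, mice 130 and 15, r was 0.897 for Itgb4, 0.826 for Lama5, 0.788 for Lamb2 and 0.714 for Lama4. On the 86 and the 18 arrays r was 0.882 and 0.839 for Lama5, 0.808 and 0.940 for Lamb2, and 0.748 and 0.895 for Lama4. Lama2 (r = 0.674, rho = 0.584) and Lamb1 (r = 0.627, rho = 0.515) also passed with this score. Itga6, the partner of Itgb4, had r = 0.713, and Itgb6, an epithelial partner of alpha V, r = 0.538, which was 0.156 on the 18 limit-rich arrays. Lama3 and Lamb3, which join in the laminin of stratified epithelia, passed by r (0.484 and 0.276) but had rho of only 0.159 (permutation p = 0.113) and 0.0611 (p = 0.541).

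**Figure D4:**
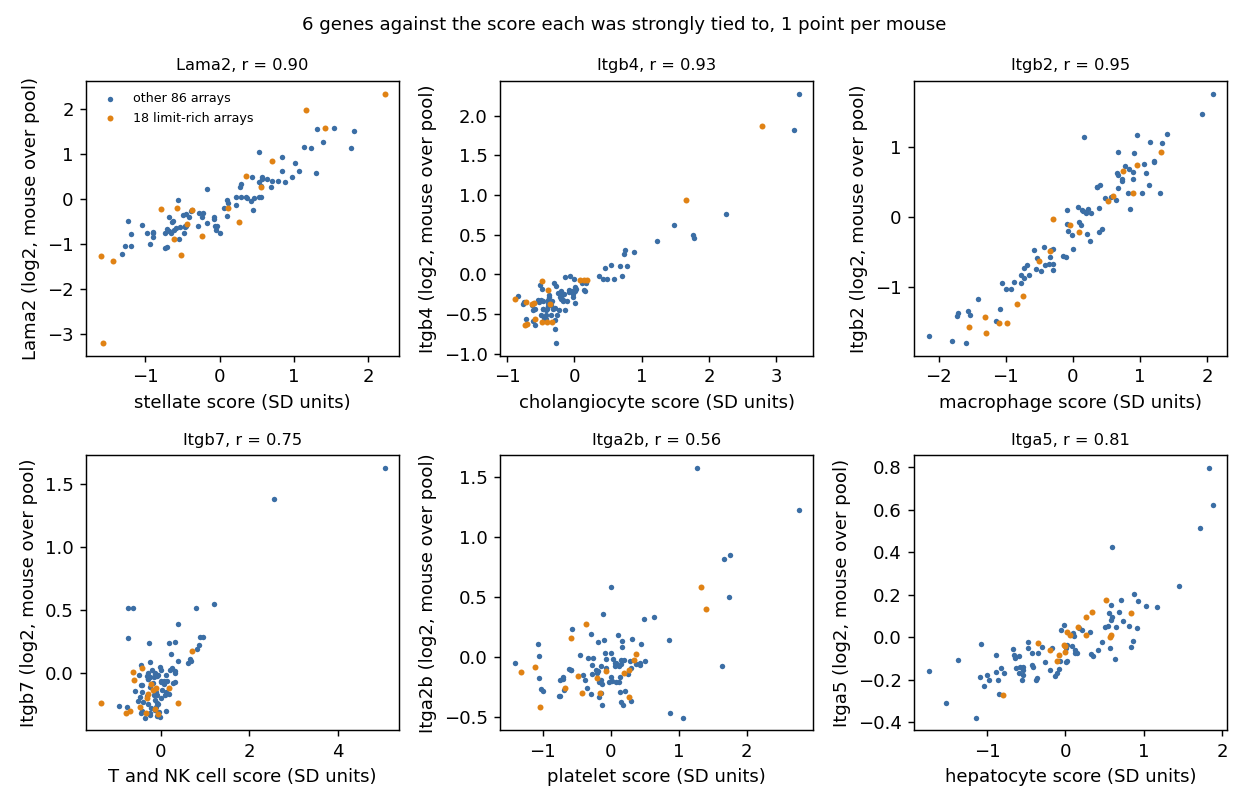
Log2 ratio of 6 genes (vertical axes) against the marker score each was strongly tied to (horizontal axes, SD units), 1 point per mouse, limit-rich arrays in orange. Lama2 and Itgb2 rise over the whole range of mice, while Itgb4 and Itgb7 depend more on a few mice at the upper end.

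Leukocyte integrins followed macrophage genes to unequal degrees. The macrophage score used 8 of 10 genes, among them C1qa, Cd68 and Adgre1. Of the 31 genes 20 passed as positive and 2 as negative, beside 47.3% of all genes in either direction, 19.8% as positive and 27.5% as negative. Itgb2 had r = 0.952 (rho = 0.953, 0.949 on the 86 arrays and 0.974 on the 18, 1.72-fold per SD, adjusted p = 2.17e-51). Itgax had r = 0.665 (rho = 0.682), Itga9, a tenascin receptor chain, 0.663 (rho = 0.678) and Lamb1 0.648 (rho = 0.647), with adjusted p of at most 1.56e-12 and permutation p = 1e-05 each. On the 86 and the 18 arrays r was 0.623 and 0.869 for Itgax, 0.721 and 0.682 for Itga9, and 0.661 and 0.738 for Lamb1. Without the 2 mice farthest from the median score r was 0.949 for Itgb2, 0.652 for Itgax, 0.651 for Itga9 and 0.608 for Lamb1. Itgal, the alpha chain of LFA-1 on lymphocytes and other leukocytes, had r = 0.635, while Itgam, the alpha chain CD11b of myeloid cells, had r = 0.384 (rho = 0.301, adjusted p = 2.35e-04). Itgal ranged over only 1.45-fold and Itgam over 2.24-fold, against 5.98-fold for Itgb2. Itga4, a receptor chain for Vcam1, had r = 0.389.

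With neutrophil genes 20 passed as positive and 2 as negative, beside 49.3% of all genes in either direction, 21.8% as positive and 27.4% as negative. The leading genes were Itgb2 (r = 0.739, rho = 0.839, adjusted p = 1.35e-16), Itga6 (0.595, rho = 0.568), Lama2 (0.536, rho = 0.572) and Itgal (0.534, rho = 0.591), each with permutation p = 1e-05 and, after the first, adjusted p of at most 1.08e-07. On the 86 and the 18 arrays r was 0.735 and 0.789 for Itgb2, 0.511 and 0.730 for Itga6, 0.438 and 0.686 for Lama2, and 0.609 and 0.352 for Itgal. Without the 2 mice farthest from the median score r was 0.756, 0.591, 0.559 and 0.540 in the same order of genes. Itgam had r = 0.419 with this score. The neutrophil and macrophage scores themselves correlated at r = 0.688.

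With T and NK cell genes only 4 genes passed as positive and 2 as negative, beside 23.1% of all genes in either direction, 11.9% as positive and 11.2% as negative. When the 2 mice of most extreme score were left out 5 passed, beside 3.33% of all genes, and by ranks 2 passed, beside 2.70%, so the share of all genes rests largely on those mice. Itgb7, the beta chain of gut-homing lymphocyte integrins, led with r = 0.751 (rho = 0.416, adjusted p = 4.86e-17, permutation p = 1e-05 for both). Its values ran from -0.36 log2 in mouse 74 through a median of -0.08 to 1.63 in mouse 26 and 1.39 in mouse 20, the 2 mice with the highest T and NK cell scores (5.06 and 2.57). Without those 2 mice r was 0.452, and on the 86 and the 18 arrays it was 0.767 and 0.342. Itgal had r = 0.383 (rho = 0.365, adjusted p = 9.17e-04), with 0.423 on the 86 arrays and -0.222 on the 18. Itgb5 (r = -0.354, rho = -0.140, permutation p = 6.90e-04 and 0.158) and Itga4 (r = 0.289, rho = 0.163, permutation p = 0.0107 and 0.0970) passed by r, but not by ranks or without the 2 mice (r = -0.263 and 0.184). Itgb2 (r = 0.261, adjusted p = 0.0332) and Itga7 (r = -0.253, adjusted p = 0.0444) also passed, the Itga7 value being 0.186 without the 2 mice.

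With endothelial genes, of which 9 of 10 were measured, 4 of the 31 passed, all as positive, beside 9.25% of all genes in either direction, 6.02% as positive and 3.23% as negative. These were Lamb1 (r = 0.376, rho = 0.422, adjusted p = 0.00249), Lama4, the alpha chain of vessel walls (r = 0.360, rho = 0.563, adjusted p = 0.00451), Itgb2 (r = 0.328, rho = 0.347, adjusted p = 0.0122) and Itga9 (r = 0.297, rho = 0.327, adjusted p = 0.0287), with permutation p of at most 0.00226. On the 18 limit-rich arrays r was 0.104 for Lamb1, 0.371 for Lama4, 0.0730 for Itgb2 and 0.302 for Itga9, and on the 86 arrays 0.398, 0.397, 0.414 and 0.278. Without the 2 mice farthest from the median score r was 0.366, 0.398, 0.337 and 0.304. The shift of this score with mouse number was not adjusted for.

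The platelet score rested on the 4 measured genes of 9 listed and ran with the macrophage score. With it 15 genes passed as positive and 3 as negative, beside 39.5% of all genes in either direction, 17.3% as positive and 22.1% as negative. Itgb2 (r = 0.750, rho = 0.832) and Itgal (0.587, rho = 0.547) came before Itga2b, the alpha chain of the platelet fibrinogen receptor, at r = 0.559 (rho = 0.325, permutation p = 1e-05 and 7.80e-04, adjusted p = 2.26e-08). Itga9 followed at 0.465 (rho = 0.542). Itga2b was highest in mice 78 (1.58 log2) and 99 (1.23), and its r was 0.430 without the 2 mice of most extreme score, 0.554 on the 86 arrays and 0.606 on the 18. For Itgb2 those 3 values were 0.748, 0.756 and 0.719, for Itgal 0.483, 0.647 and 0.261, and for Itga9 0.433, 0.580 and 0.214. Itgb3, the beta partner of Itga2b, had r = 0.0883 with the platelet score (adjusted p = 0.515).

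Itga5 and Itgb3 instead followed hepatocyte genes. The hepatocyte score used 7 of 10 genes, among them Alb, Apoa1 and Ttr. Of the 31 genes 5 passed as positive and 10 as negative, beside 47.7% of all genes in either direction, 23.0% as positive and 24.7% as negative. Itga5 had r = 0.809 (rho = 0.828, 0.808 on the 86 arrays and 0.810 on the 18, adjusted p = 2.52e-21) and Itgb3 r = 0.616 (rho = 0.635, adjusted p = 2.29e-10), with permutation p = 1e-05 for each r and rho. The slopes were small, 0.14 ± 0.01 and 0.10 ± 0.01 log2 per SD, or 1.10-fold and 1.07-fold. With Alb alone r was 0.878 for Itga5 and 0.798 for Itgb3, and the 2 integrin genes correlated with each other at r = 0.740 (rho = 0.610), all 3 with permutation p = 1e-05 and chosen after their values were seen. Lamc1 was the strongest negative at r = -0.544 (rho = -0.614, adjusted p = 4.22e-08), followed by Itgb2 at -0.415 (rho = -0.444, adjusted p = 5.13e-05). On the 86 and the 18 arrays r was 0.641 and 0.437 for Itgb3, -0.575 and -0.640 for Lamc1, and -0.435 and -0.307 for Itgb2. Without the 2 mice farthest from the median score r was 0.793 for Itga5, 0.558 for Itgb3, -0.541 for Lamc1 and -0.430 for Itgb2. The Itgav probes differed in sign here, with r of -0.396 and -0.458 for the first and the second probe and 0.369 for the third. No gene of the 31 passed with skeletal muscle genes by limma. Of all genes 1.30% passed in either direction, 1.09% as positive and 0.211% as negative. An unadjusted p under 0.05 was found for 5 of the 31, but the share of all genes at that threshold was not counted. Itga7 had r = -0.0439 with the muscle score. By ranks 2 passed and without the 2 extreme mice 1 did.

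Because the scores overlap, all 9 were also entered in 1 fit, an alternative chosen after seeing the data. The 9 scores together accounted for 95.8% of the variance of Itgb2 over mice, 88.1% of that of Itgb4 and 86.8% for Lamb1. The share was 86.7% for Lama2, 86.4% for Lama5 and 85.0% for Lama4, against a median of 32.1% over all genes. It was as little as 7.52% for the mean of the Itgb1 probes and 9.98% for Itgb3bp. The less variable Itgb1 probe was not fitted alone here, and had r = 0.666 with the stellate score by itself. With the other scores held, 9 genes were positive and 2 negative with the stellate score (14.4% of all genes passed), led by Lama2 (0.65 ± 0.06 log2 per SD, adjusted p = 2.21e-15), Lamb1 (0.45 ± 0.05, adjusted p = 5.71e-14) and Itgax (0.38 ± 0.05, adjusted p = 4.77e-08). Itgax narrowly did not pass with the macrophage score in this fit (0.18 ± 0.06, adjusted p = 0.0589). With the cholangiocyte score 13 genes were positive and none negative (15.1% of all genes passed in either direction). The largest slopes were those of Lama5 (0.63 ± 0.05, adjusted p = 5.37e-22), Lama3 (0.46 ± 0.09, adjusted p = 8.79e-05) and Itgb4 (0.45 ± 0.02, adjusted p = 4.88e-31). Lama4 had a slope of 0.32 ± 0.02 (adjusted p = 1.14e-19). The 2 highest Lama3 values, 4.68 and 4.44 log2 in mice 68 and 71, lay on limit-rich arrays. As given above, the rank correlation of Lama3 with this score was low. With the macrophage score 3 genes passed (7.43% of all genes), Itgb2 (0.56 ± 0.04, adjusted p = 4.48e-21) and Itgal (0.15 ± 0.03) as positive and Lamb2 (-0.11 ± 0.03) as negative. Itgam did not pass with it (-0.10 ± 0.05, adjusted p = 0.284) or with the neutrophil score (0.03 ± 0.04). It passed as positive with the hepatocyte (0.16 ± 0.03) and stellate scores (0.14 ± 0.05). Lama4 led the endothelial score (0.17 ± 0.02, adjusted p = 7.87e-11), Itgb7 the T and NK cell score (0.21 ± 0.02, adjusted p = 1.16e-13) and Itga5 the hepatocyte score by its p-value (0.15 ± 0.01, adjusted p = 2.24e-20). In all, 4 genes passed with the endothelial score (11.1% of all genes), 6 with the T and NK cell score (21.2%), 14 with the hepatocyte score (42.3%) and none with the muscle score (3.24%). Itga2b (0.23 ± 0.05, adjusted p = 0.00769) and Lama5 (0.29 ± 0.06, adjusted p = 0.00873) were the 2 genes that passed with the platelet score (0.400% of all genes), and Itga6 was the 1 that passed with the neutrophil score (1.31%).

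Chains known to join in the same receptor or laminin were then compared directly. For each anchor chain, every gene was regressed on its level and p-values were adjusted over all genes. Of 23 measured pairs, 14 passed as positive and none as negative. The 8 pairs with Itgb1 entered this count by the mean of its probes, which hardly correlated (r = 0.0274). By the less variable probe alone Itga7 correlated negatively with Itgb1, as given below. All 3 measured alpha partners passed with Itgb2 (22.2% of all genes passed as positive), Itgax at r = 0.720 (rho = 0.715), Itgal at 0.607 (rho = 0.628) and Itgam at 0.352 (rho = 0.274, adjusted p = 7.33e-04). With the first principal component as a covariate r for Itgam was -0.157. Itga4 had r = 0.527 (rho = 0.412) with Itgb7 (16.4% of all genes positive), and Itga6 r = 0.703 (rho = 0.580) with Itgb4 (20.7%). With Lamc1 (22.5% positive) 5 of 6 partners passed, Lamb1 at r = 0.736, Lama2 at 0.666, Lama5 at 0.665, Lamb2 at 0.637 and Lama4 at 0.586, while Lama1 had r = 0.201 (adjusted p = 0.0795). Permutation p for r was 1e-05 for each of these called laminin pairs and for Itgax, Itgal, Itga4 and Itga6. On the 86 and the 18 arrays r was 0.687 and 0.867 for Itgax with Itgb2, 0.602 and 0.579 for Itgal, and 0.362 and 0.705 for Itgam. For Itga6 with Itgb4 it was 0.658 and 0.833, and for Itga4 with Itgb7 0.527 and 0.400. The called pairs with Lamc1 lay between 0.546 (Lama4) and 0.700 (Lamb1) on the 86 arrays and between 0.737 (Lama4) and 0.866 (Lamb2) on the 18.

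Itgav passed with Itgb6 (r = 0.452, 19.0% of all genes positive) and Itgb5 (r = 0.364, 14.3%), but not with Itgb3 (r = -0.00023, adjusted p = 0.999, 18.0%). Its r with Itgb3 was 0.358 when only probes with a value on every array were used, which leaves out the second probe, and its r with Itgb6 was -0.00523 on the 18 limit-rich arrays. Itga2b passed with Itgb3 at r = 0.302 (rho = 0.268, adjusted p = 0.00642). Of 8 pairs with the mean of the Itgb1 probes, only Itga9 passed (r = 0.354, adjusted p = 0.00395, 6.63% of all genes positive). Itga9 shifted with the array class (median 0.38 log2 on the 18 limit-rich arrays, -0.16 on the 86). The more variable Itgb1 probe shifted the same way (0.62 and 0.07), and the mean of the Itgb1 probes less (-0.006 and -0.07). The r of Itga9 with Itgb1 within each class is not printed here, so its pooled r is to be read with that shift. The other Itgb1 pairs lay between r = -0.256 for Itga7 and 0.245 for Itga2, with adjusted p of at least 0.0554. For the less variable probe of Itgb1 alone r was 0.567 with Itga9, 0.538 with Itga6, 0.442 with Itgav and -0.557 with Itga7, each with permutation p = 1e-05, and for the more variable probe it was 0.235, -0.0830, -0.0322 and -0.116. Other partners of Itgb1 are not given by probe. The less variable probe also passed with the stellate score (r = 0.666, adjusted p = 4.88e-13), and the more variable one did not (r = -0.00632).

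**Figure D5:**
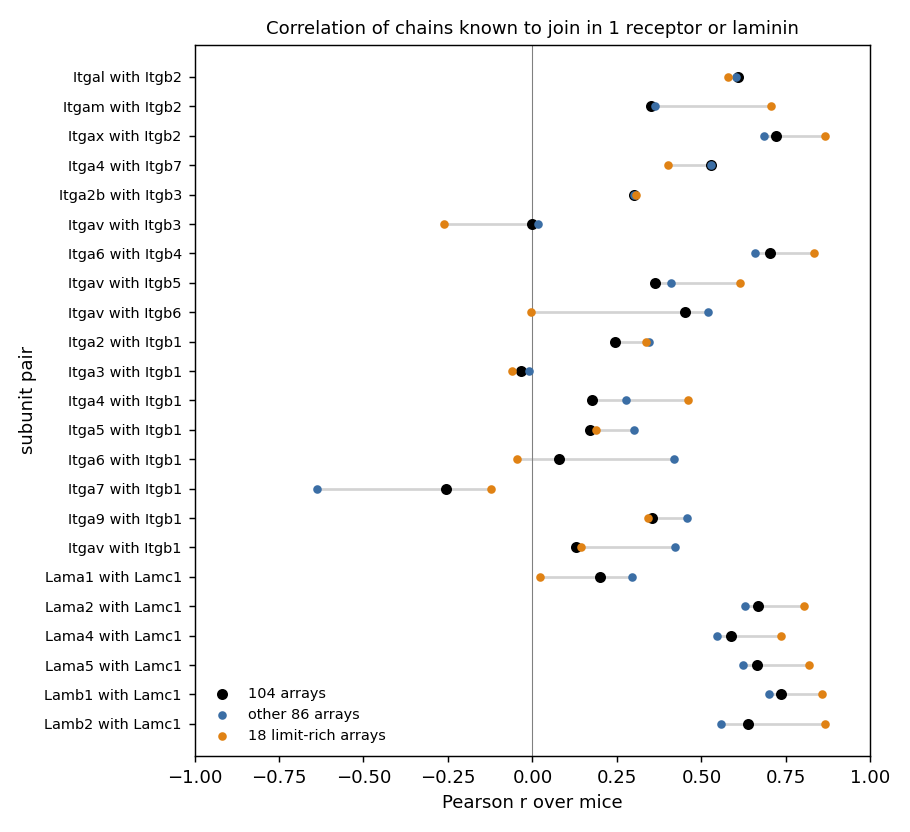
Pearson r (horizontal axis) of 23 pairs of chains that join in 1 receptor or laminin, over all 104 arrays (black), the 86 arrays (blue) and the 18 limit-rich arrays (orange). Pairs with Lamc1, Itgb2 and Itgb4 lie to the right on both sets of arrays, apart from Lama1, and the mean of the 2 Itgb1 probes gives scattered values.

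Outside the family, the genes most like Itgb2 over 104 mice were Cd48 (r = 0.947), a surface protein of leukocytes, Ms4a6d (0.947) and the complement gene C1qb (0.944). C1qb is itself a gene of the macrophage score, so its r is no separate result from that of the score. Those most like Lamc1 were the collagen Col16a1 (0.803), Natd1 (0.797) and Tgfb1i1 (0.777), a focal adhesion protein also called Hic-5. For Lamb3 the closest were Il3 (0.513), Krt23 (0.512) and Elavl3 (0.511). Of these Elavl3 had r = 0.0427 on the 86 arrays and 0.838 on the 18. Krt23, a keratin and a gene of the cholangiocyte score, had 0.380 and 0.835, and Il3 is not given by class.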

How the data were processed

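Liver RNA of 107 F2 mice, each against a common pool, was measured on 2-colour arrays of 23536 probes. The authors deposited 1 value per probe and array, read here as a log10 ratio because values stop at exactly -2 and 2 (100-fold in base 10). How the dyes were assigned and the signals corrected is not stated in the labels, and array medians lay between -0.07 and 0.07 log2. Values were multiplied by 3.32 to give log2 ratios. Values at the limits (1.07% of all) were treated as not measured, and a further 1.69% were missing. Probes with values on at least 90% of 104 arrays were kept (20633), named through the platform annotation (14744 probes with 1 symbol, 18 with several, 8774 with none here), with symbols updated through the gene table of GRCm38.p6, and averaged per gene.

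Every gene was regressed on each score or anchor gene with limma 3.58.1 (R 4.3.3), 2-sided, with genes of the score left out. The fit was tested on simulated data. Pearson r and Spearman rho had 100000 permutations of the mice, 2-sided (Python 3.11.15, NumPy 2.4.6). Arrays with over 700 values at the limits formed the class of 18. Alternatives changed the arrays, limits, ranks, extreme mice, probe filter, centring and covariates. The members, lists, pairs and tests were chosen with earlier results of these data known. Values are given for the 6 widest and 3 narrowest genes, up to 4 called genes of largest r per score, all measured pairs, 3 outside genes for each of Itgb2, Lamc1 and Lamb3, and up to 4 genes per pathway list. Further genes were named after their values were seen.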

Additional observations from a re-analysis of the deposited data

How the results depend on the processing

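Counts of genes called out of 31, and the share of all genes called, moved most under 3 settings. On the 18 limit-rich arrays alone, where fewer arrays were fitted, 11 passed with the cholangiocyte score (19 on 104 arrays), beside 15.5% of all genes, 11 with macrophage genes (22), beside 16.0%, 9 with neutrophil genes (22), beside 15.7%, and 3 with platelet genes (18), beside 9.23%. There 0 passed with endothelial (4), T and NK cell (6) and hepatocyte genes (15), beside 0%, 0.0325% and 0.910% of all genes. By limma's unadjusted p under 0.05 those 3 counts were 0, 12 and 4. The share of all genes at that unadjusted threshold was not counted, so these counts cannot be compared with a background. Subunit pairs numbered 9 (14). On those arrays 10.5% of all genes passed as positive with Lamc1, 10.1% with Itgb2, 8.98% with Itgb5, 7.43% with Itgb4 and 0.471% with Itgb6. With Itgb1, Itgb3 and Itgb7 no gene at all passed there, so none of their pairs could. Pathway genes with the stellate score numbered 18 (30), beside 23.4% of all genes with that score. With the first principal component, 19.0% of the variance, as a covariate 12 passed with stellate genes (19), beside 20.8% of all genes, 7 with macrophage, beside 18.8%, 6 with neutrophil, beside 2.28%, 3 with platelet, beside 2.93%, and 15 with T and NK cell genes, beside 18.6%, with 9 pathway genes. With all 9 scores in 1 fit 11 passed with stellate, 3 with macrophage, 1 with neutrophil and 2 with platelet genes. The endothelial count was 7 by ranks, beside 16.3% of all genes, and 7 with arrays centred, beside 13.8%. The T and NK cell count was 2 by ranks and 3 with the array class as a covariate, beside 22.7%, and the muscle count 2 by ranks, beside 4.95%, and 1 without the 2 extreme mice, beside 0.959%. The causes of these changes in count were not tested. All other alternatives run left these counts within 1.5 times, and the platelet score could not be made from probes on every array, where under 3 of its genes remained. No paired analysis was possible because all mice form 1 group.

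Sign changes were counted only for correlations that passed in the original fit or in the alternative. Among those named by rule and recomputed under each alternative, 7 changed sign. On the 18 arrays with scores rebuilt from them, these were Lamb1 (-0.0143) and Itgb2 (-0.0738) with the endothelial score, Itgal with the T and NK cell score (-0.104) and Itgav with Itgb6 (-0.00523). With the first principal component they were Lama2 with the neutrophil score (-0.0167) and Itgam with Itgb2 (-0.157), and with probes on every array Itgav with Itgb3 (0.358). Outside those, Itga7 with the T and NK cell score (0.186) and Itgb1 with Itgb3bp (0.00775) turned without 2 mice. The median range was 1.79-fold without the limit-rich arrays, 2.20-fold with limits kept and 1.41-fold under a natural logarithm, against 2.20-fold. A signal over background was not analysed here, so how far dim probes set a low correlation is not known.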
